A study of Mus musculus with 6 samples.

Results

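Among the genes through which the tumour suppressor p53 halts the cell cycle, 7 were followed in haploid mouse embryonic stem cells with and without p53: Cdkn1a, Ccng1, Btg2, Gtse1, Psrc1, Plk2 and Plk3. They were taken by gene symbol from a table of 54532 genes, each symbol matched 1 gene, and all 7 were among the 15144 genes expressed highly enough to be tested (a mean of at least 0.5 FPKM, a read count divided by gene length and by library depth). Poly(A)-selected RNA came from 3 libraries of wild-type (WT) haploid cells and 3 libraries of p53-deficient haploid cells, both of strain 129SV, with no treatment, time point or passage named. The p53-deficient samples are titled P53ki, carry the genotype P53 - haploid, and are named a knockout in the design of the series. No label gives the origin of the replicates, so p-values measure only how these libraries vary, possibly for technical reasons alone. Nor is the allele or the number of lines or clones given, and p53 loss and a difference between lines cannot be told apart.

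p53 is a transcription factor that binds a pair of short half-sites in DNA and switches on its target genes when DNA is damaged or oncogenes are active. The best known arrest target, Cdkn1a, encodes p21, which binds and inhibits cyclin-dependent kinases, keeps the retinoblastoma proteins active, and lets the DREAM complex shut down the genes of division. Embryonic stem cells of the mouse cycle fast, with a short G1 phase and a weak G1 checkpoint, and haploid ones tend to turn diploid as they are cultured.

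Library depth, rebuilt from the deposited values, was 11536412 to 21218976 reads in listed genes, and each of the 7 genes had between 86 and 8271 reads in every library. Trp53, the gene of p53, went from 68.0 ± 3.03 to 9.80 ± 0.155 FPKM (SD, n = 3 per group), so that 14.4% of its WT level remained. All 10 embryonic stem cell markers examined were above the test's minimum level, and 5 were higher in p53-deficient libraries, 4 lower and 1 not passed, or 3 higher and 5 lower with median scaling. Their median log2 fold change was 0.03. The most abundant, Dppa5a, fell from 2007 ± 30.0 to 1075 ± 35.1 FPKM, Nanog fell with -0.57, and Esrrb rose with 0.88. Markers of fibroblasts, the usual feeder cells of such cultures, were lower in p53-deficient libraries in 16 of 16 tested genes. Summed over the 17 listed genes, they stood at 1064 to 1085 FPKM in WT and 267 to 274 FPKM in p53-deficient libraries, and S100a4 was listed at 0 in p53-deficient replicates 1 and 2. On the log2(FPKM + 1) scale, Lox, Col3a1 and Thbs1 fell most, with -3.37, -2.75 and -2.73, and Vim least, with -0.46. In percent of the WT level remaining, Prrx1 (7.85%) and Twist2 (8.49%), both less abundant, fell further than Lox (9.08%). Lox went from 158 ± 1.66 to 14.3 ± 0.318 FPKM, a larger fall than the -3.06 of Cdkn1a. Of all tested genes, 35.3% were higher and 31.3% lower. Reads of 4 Y-linked genes numbered 1161 in the WT and 103 in the p53-deficient libraries. The fibroblast and Y-linked values are lower in the same libraries as the members that fell, and their part in those falls was not tested. In bulk RNA, fewer cells of a type and less RNA per cell cannot be told apart.

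The stretches upstream of the annotated starts were searched for the elements these genes are known for, since the genes are grouped by a shared regulator. RefSeq gave 10 windows for the 7 genes, each from 250 bases before to 50 bases after a start (build GRCm38.p6, coordinates equal to those of mm10). The windows are of the reference strain, and the cells' own sequence was not read. The p53 element was taken as 2 adjacent half-sites, 20 bases in all, a pattern that reads alike on both strands. A match with at most 1 mismatch was found in 3 of the 10 windows, which belong to 3 of the 7 genes. In the whole RefSeq table it was found in 29 of 32851 windows (0.0883%), these 3 included. These 3 sites are shown because no other member window came within 3 mismatches, with bases that match in capitals and the mismatch in lower case:
Cdkn1a site, chr17:29090928-29090947, plus strand: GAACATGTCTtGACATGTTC
Ccng1 site, chr11:40755462-40755481, minus strand: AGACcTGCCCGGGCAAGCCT
Gtse1 site, chr15:85859945-85859964, plus strand: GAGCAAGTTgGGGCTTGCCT

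The Cdkn1a site lies 51 to 32 bases upstream of the start at 29090979 and 2841 to 2822 bases upstream of the start at 29093769. That of Ccng1 lies 195 to 176 bases upstream of its start. The Gtse1 site spans the annotated start at 85859946 and lies 238 to 257 bases downstream of the start at 85859707. The best matches of Btg2, Psrc1, Plk2 and Plk3 had 4 or 5 mismatches. A match with at most 5 was found in 76.6% of all windows. Sites outside the windows, and sites with bases between the half-sites, were not searched.

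3 further motifs were searched on both strands. The cell cycle homology region (CHR, searched in the form TTTGAA, the palindrome TTCGAA, the palindrome TTTAAA and the form CTTGAA), an element of genes repressed through DREAM, was found in Gtse1, Psrc1 and Plk2, and in 37.3% of all windows. The CCAAT box was found in Ccng1, Btg2, Gtse1 and Psrc1, and in 37.4% of all windows. The full cyclic AMP response element (CRE, TGACGTCA), an element of rapidly induced genes, was found in Btg2 and Plk2, and in 1.79% of all windows. These shares are of windows, while Cdkn1a, Gtse1 and Psrc1 each had more than 1 window. Plk3 held none of the 4 motifs. The search was by sequence alone and cannot tell a CHR of the form TTTAAA, as in Plk2, from another element with those bases. Whether any match acts as the named element was not tested. The 250 bases before the start are shown for Cdkn1a and Ccng1, whose windows hold the p53 site, and for the paralogs Plk2 and Plk3, of which 1 fell and 1 did not pass. Capitals mark the p53 site, CHR, CCAAT box or CRE:
Cdkn1a, chr17:29090729-29090978, plus strand: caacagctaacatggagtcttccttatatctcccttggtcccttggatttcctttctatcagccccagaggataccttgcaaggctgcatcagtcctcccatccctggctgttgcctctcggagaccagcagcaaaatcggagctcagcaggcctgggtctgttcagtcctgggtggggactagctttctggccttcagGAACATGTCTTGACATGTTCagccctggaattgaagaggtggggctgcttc
Ccng1, chr11:40755287-40755536, minus strand: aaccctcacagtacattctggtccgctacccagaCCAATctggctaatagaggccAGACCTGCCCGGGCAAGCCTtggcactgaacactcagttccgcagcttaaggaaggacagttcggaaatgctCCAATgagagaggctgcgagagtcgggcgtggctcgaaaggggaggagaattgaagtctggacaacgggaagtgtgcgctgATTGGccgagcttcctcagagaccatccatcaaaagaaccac
Plk2, chr13:110394794-110395043, plus strand: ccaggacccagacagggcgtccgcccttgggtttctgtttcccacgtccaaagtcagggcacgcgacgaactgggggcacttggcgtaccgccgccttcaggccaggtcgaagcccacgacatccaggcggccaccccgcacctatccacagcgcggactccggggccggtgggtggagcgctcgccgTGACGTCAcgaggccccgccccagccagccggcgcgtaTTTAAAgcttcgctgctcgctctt
Plk3, chr4:117133964-117134213, minus strand: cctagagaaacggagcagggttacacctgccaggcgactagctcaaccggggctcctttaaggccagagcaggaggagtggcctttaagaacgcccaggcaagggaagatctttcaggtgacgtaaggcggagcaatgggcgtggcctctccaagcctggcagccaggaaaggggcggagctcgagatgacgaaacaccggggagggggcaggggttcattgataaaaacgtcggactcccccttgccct

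**Figure D1:**
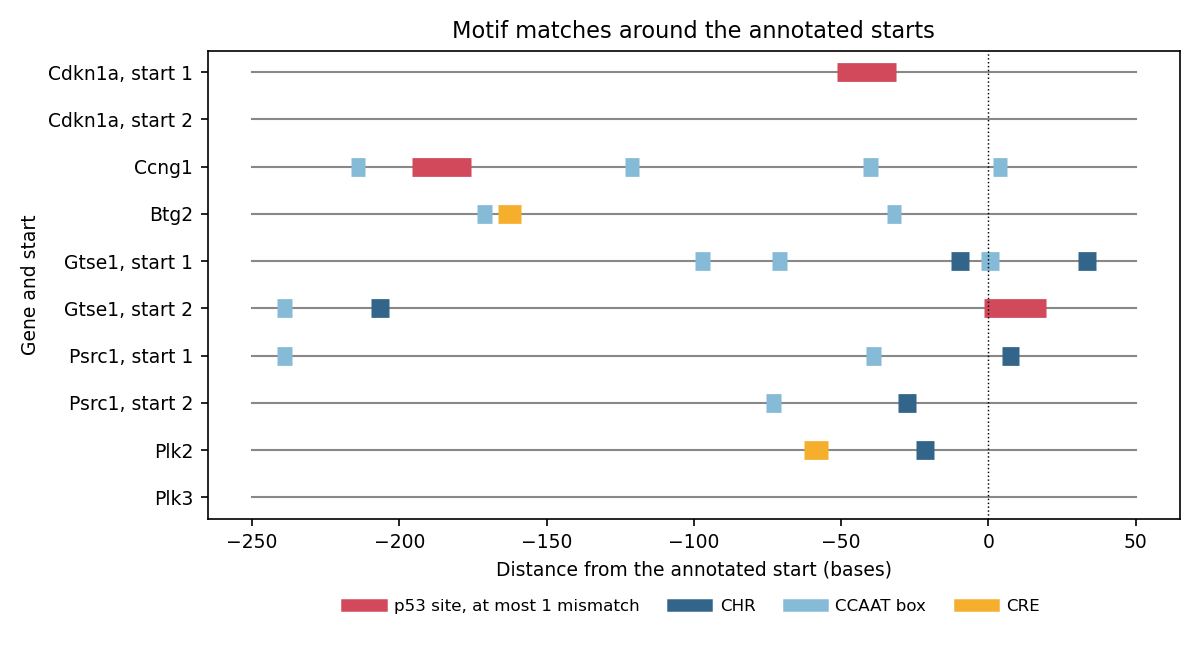
Motif matches in the 10 annotated start windows of the 7 genes; each line is a window from 250 bases before to 50 bases after a start (x axis, bases), and coloured blocks are matches. The p53 site with at most 1 mismatch is seen in Cdkn1a, Ccng1 and Gtse1, and the Plk3 window holds no match of any of the 4 kinds.

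Of the 7 genes, 6 were lower in p53-deficient cells and 1, Plk3, did not pass (limma adjusted p under 0.05), where 31.3% of all tested genes were lower and 66.5% were called in either direction. A fall of at least 2-fold on the log2(FPKM + 1) scale was seen in 5 of the 7 and in 6.3% of all tested genes. At a log2 fold change of -3 or below, those 5 stood among 41 genes, 0.271% of the total. The scale understates falls of low genes. Outside the 41, Prrx1 kept 7.85% of its WT level at -2.54 and Ptprv 8.90% at -2.33, against 11.03% for Cdkn1a. Calls of higher genes made up 35.3% of the total, and none of the 7 was among them. The median log2 fold change of the 7 was -3.06, and that of all tested genes was 0.03. In 6 of the 7 every p53-deficient library lay below every WT library, as in 33.7% of all tested genes, and in Plk3 every one lay above, the groups being apart in either direction in 71.4% of all tested genes. The same 6 genes were lower in each of the 14 alternative analyses.

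**Figure D2:**
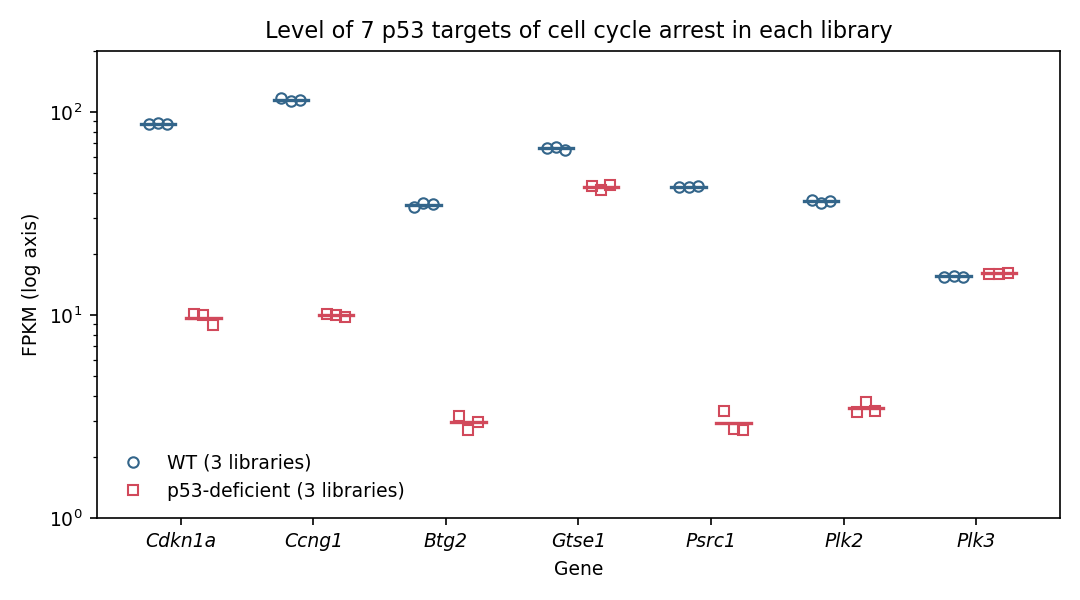
FPKM (log axis) of the 7 genes in each library; open circles are the 3 WT and open squares the 3 p53-deficient libraries, and horizontal bars are group means. Cdkn1a, Ccng1, Btg2, Psrc1 and Plk2 sit about 10-fold lower in p53-deficient cells, Gtse1 goes from 66.1 to 42.6 FPKM, and Plk3 is at 15.46 and 15.99 FPKM.

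Cdkn1a (ENSMUSG00000023067, chr17:29090976-29100727, plus strand), which encodes the kinase inhibitor p21, had 87.6, 88.1 and 87.01 FPKM in WT and 10.1, 9.94 and 8.92 FPKM in p53-deficient libraries. The groups lay far apart, and the WT libraries differed among themselves by little (coefficient of variation 0.598%, against 6.68% in p53-deficient cells). The level that remained was 11.03% of WT, and 10.1% to 11.6% over all pairings of libraries. The log2 fold change was -3.06 (SE 0.0454, limma adjusted p = 4.72e-08). The library kit is not stated to mark strand, and AC167363.2, annotated on the opposite strand, shares 273 exon bases (7.68%) with Cdkn1a. It had 2.96 to 3.71 FPKM in WT and at most 0.163 FPKM in p53-deficient libraries.

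Ccng1 (ENSMUSG00000020326, chr11:40748552-40755311, minus strand) encodes cyclin G1, which partners a phosphatase that activates Mdm2 and so feeds back on p53. It was the most abundant of the 7 in WT cells, with 117, 113 and 114 FPKM, and had 10.06, 10.03 and 9.78 FPKM without p53. No library of either group came near the other group. The log2 fold change was -3.40 (SE 0.0250, limma adjusted p = 6.37e-09), and 8.67% of the WT level remained.

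Btg2 (ENSMUSG00000020423, chr1:134075170-134079120, minus strand) encodes an antiproliferative protein that recruits the CCR4-NOT deadenylase to messenger RNA. Its WT libraries had 34.1, 35.5 and 35.04 FPKM and its p53-deficient libraries 3.19, 2.71 and 2.95 FPKM. Every p53-deficient value was below 10% of every WT value, with 8.46% remaining on average. The log2 fold change was -3.18 (SE 0.0491, limma adjusted p = 5.41e-08).

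The next 2 genes encode proteins of microtubules and the spindle. Psrc1 (ENSMUSG00000068744, chr3:108383839-108388231, plus strand) encodes a proline- and serine-rich coiled-coil protein that regulates spindle microtubules. It had 42.7, 42.6 and 43.3 FPKM in WT and 3.38, 2.75 and 2.70 FPKM in p53-deficient libraries, where replicate 1 stood highest. Its fall was the largest of the 7, with a log2 fold change of -3.48 (SE 0.0665, limma adjusted p = 1.29e-07) and 6.86% of the WT level remaining. By log2 fold change of FPKM + 1, Psrc1 ranked 26 among the 15144 tested genes, counted from the largest fall. Ccng1 followed at 29, Btg2 at 34, Plk2 at 38 and Cdkn1a at 39. In percent remaining, Btg2 (8.46%) fell slightly further than Ccng1 (8.67%).

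Gtse1 (ENSMUSG00000022385, chr15:85859745-85876573, plus strand) encodes a microtubule-bound protein of the G2 and S phases that can carry p53 out of the nucleus. Its libraries had 66.4, 66.9 and 64.9 FPKM in WT and 42.9, 41.3 and 43.5 FPKM in p53-deficient cells. The groups did not overlap, yet 64.4% of the WT level remained. The log2 fold change was -0.62 (SE 0.0269, limma adjusted p = 3.42e-06). By log2 fold change it ranked 1922 among the tested genes, counted from the largest fall. Without p53 it was the most abundant of the 7.

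Plk2 and Plk3 are polo-like kinases, relatives of the mitotic kinase Plk1. Plk2 (ENSMUSG00000021701, chr13:110395046-110400844, plus strand), which acts in centriole duplication, had 36.7, 35.7 and 36.2 FPKM in WT and 3.31, 3.72 and 3.37 FPKM in p53-deficient libraries. It kept 9.57% of its WT level, with a log2 fold change of -3.06 (SE 0.0416, limma adjusted p = 3.46e-08). Plk3 (ENSMUSG00000028680, chr4:117128655-117133963, minus strand), a kinase of stress responses, had 15.4, 15.6 and 15.4 FPKM in WT and 15.9, 15.9 and 16.1 FPKM in p53-deficient libraries. Its p53-deficient values lay just above the WT values, by 0.05 on the log2 scale (95% interval -0.01 to 0.10), and did not pass (limma adjusted p = 0.137). The sign of that difference turned with scaling by the median log2 ratio (-0.04) and with quantile normalization (-0.02). Tctex1d4, on the opposite strand, shares 84 exon bases (3.32%) with Plk3 and had at most 0.770 FPKM in any library.

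**Figure D3:**
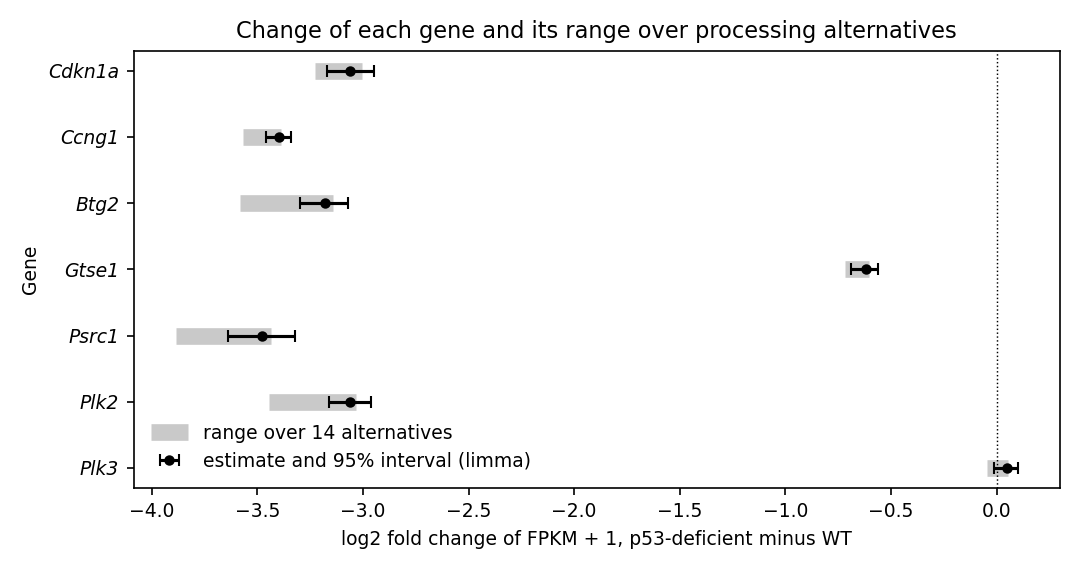
Change of each gene as log2 fold change of FPKM + 1 (x axis, p53-deficient minus WT); points are estimates with 95% intervals from limma and grey bars the range over 14 processing alternatives. 5 genes lie between -3.06 and -3.48, Gtse1 at -0.62, and the interval of Plk3 includes 0.

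Within each group, FPKM is per length and allows the genes to be ordered. The length is that of all annotated exons of a gene, from 1 transcript for Btg2 and 11 for Psrc1. Which transcripts the cells used was not tested, and the order depends on that length. In WT cells the order was Ccng1, Cdkn1a, Gtse1, Psrc1, Plk2, Btg2 and Plk3, and no neighbours in it overlapped over the 3 libraries, although Plk2 and Btg2 came close (35.7 to 36.7 and 34.1 to 35.5 FPKM). In p53-deficient cells the order was Gtse1, Plk3, Ccng1, Cdkn1a, Plk2, Btg2 and Psrc1. There Ccng1 and Cdkn1a overlapped, and so did Btg2 and Psrc1. Plk3 thus went from the lowest place to the second without a change in its own level that passed.

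Ratios within each library set the members side by side without regard to scaling. The ratio of Psrc1 to Cdkn1a was 0.484 to 0.497 in WT and 0.277 to 0.334 in p53-deficient libraries, and that of Ccng1 to Cdkn1a was 1.28 to 1.34 and 0.994 to 1.10. Plk2 to Cdkn1a stood at 0.406 to 0.419 and 0.328 to 0.378. In each of these the groups were apart, whereas Plk2 to Btg2 overlapped, at 1.01 to 1.08 and 1.04 to 1.37. Exact two-sided permutation tests on log2 ratios gave p = 0.1 for 11 of 12 ratios examined, the smallest that 3 against 3 can give, and p = 0.2 for Plk2 to Btg2 (0.109 and 0.2 after Benjamini-Hochberg adjustment over the 12 exact tests).

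The make-up of the families to which Cdkn1a, Plk2, Btg2 and Ccng1 belong differed between the groups. Among the CIP/KIP inhibitors of cyclin-dependent kinases, Cdkn1a made up 92.2%, 92.5% and 92.8% of summed FPKM in WT libraries and 58.3%, 59.2% and 54.9% in p53-deficient libraries. The sum itself went from 94.6 ± 0.737 to 16.8 ± 0.554 FPKM. Cdkn1b (p27) stood at 5.10 ± 0.0700 and 4.46 ± 0.364 FPKM, a log2 fold change of -0.16 whose call (limma adjusted p = 0.0397) was lost in 5 of the 6 fits that each left out a library, where adjusted p lay between 0.0586 and 0.103. Cdkn1c (p57) rose from 1.98 ± 0.243 to 2.68 ± 0.110 FPKM.

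Of the polo-like kinases, Plk2 held 30.9% ± 0.238 of the family's FPKM in WT and 3.58% ± 0.268 in p53-deficient libraries, while Plk1, the kinase of mitotic entry, went from 48.8% ± 0.1 to 71.1% ± 0.930. The level of Plk1 itself went from 57.2 ± 0.740 to 68.9 ± 2.28 FPKM (log2 fold change 0.26). The family's sum went from 117 ± 1.31 to 96.9 ± 1.98 FPKM. The ratio of Plk2 to Plk3 was 2.39, 2.29 and 2.35 in WT libraries, and without p53 it was 0.208, 0.233 and 0.209. Plk2 was thus the more abundant paralog in each WT library and the less abundant in each p53-deficient library (exact permutation p = 0.1 on the log2 ratio, the smallest possible).

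In the BTG and TOB family of antiproliferative genes, Btg2 held 49.9% ± 0.532 in WT and 8.63% ± 0.788 without p53. Btg1 also fell, from 8.69 ± 0.518 to 3.44 ± 0.201 FPKM, and Btg3 rose from 10.3 ± 0.285 to 12.8 ± 0.902 FPKM. Among G and I cyclins, Ccng1 held 74.3% ± 0.187 and 21.3% ± 0.428. Ccng2, its nearest relative, fell from 2.81 ± 0.146 to 0.714 ± 0.0787 FPKM, and Ccni was 36.8 ± 0.582 and 36.2 ± 1.37 FPKM without passing, though it was called lower under both scaling alternatives (-0.12 and -0.11). Of 11 tested paralogs in all, 5 were lower, 4 higher and 2 did not pass, where 31.3% of all tested genes were lower and 35.3% higher.

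**Figure D4:**
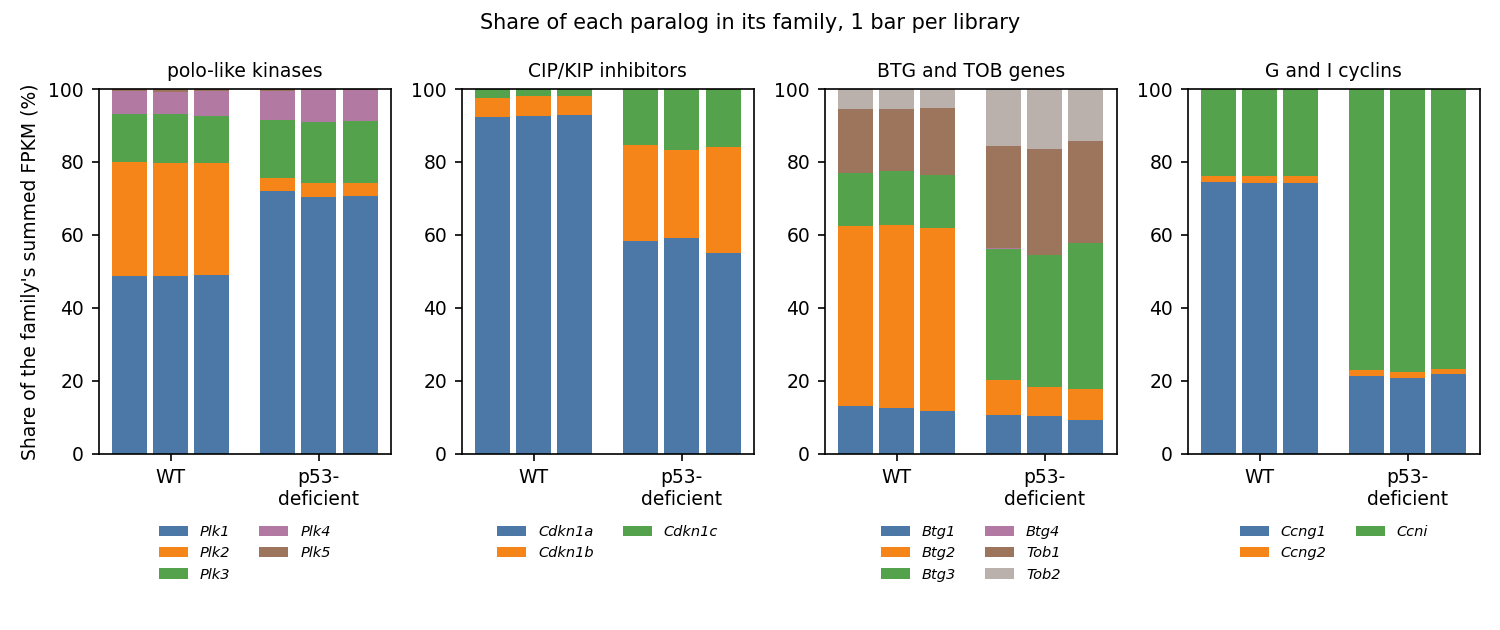
Share of each paralog in the summed FPKM of its family (y axis, percent), 1 stacked bar per library, WT on the left and p53-deficient on the right of each panel. Plk2, Cdkn1a, Btg2 and Ccng1 take 30.9%, 92.5%, 49.9% and 74.3% in WT and 3.58%, 57.5%, 8.63% and 21.3% in p53-deficient cells.

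Of 11 other p53 targets of growth arrest, 8 were lower, 2 higher and 1 did not pass, with a median log2 fold change of -0.28. Among all tested genes 31.3% were lower and 35.3% higher. Sesn2, a stress-induced inhibitor of mTORC1, fell from 56.5 ± 1.57 to 10.4 ± 0.761 FPKM. Ptprv, a receptor phosphatase gene induced by p53 in the mouse, fell from 7.25 ± 0.232 to 0.645 ± 0.0552 FPKM, and Zmat3, an RNA-binding p53 target, from 13.7 ± 0.149 to 2.25 ± 0.0610 FPKM. Sfn, the gene of 14-3-3 sigma, rose instead, from 14.7 ± 0.797 to 31.3 ± 2.43 FPKM (log2 fold change 1.04, limma adjusted p = 1.58e-05). E2f7, a repressor of E2F targets, rose with 0.55. Ppm1d (Wip1) was 9.12 ± 0.700 and 8.08 ± 0.886 FPKM without passing, but was called lower with median scaling, with voom weights (-0.24 in both) and without p53-deficient replicate 2 (-0.23).

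Of 12 cyclin, kinase and related genes whose products p21 binds, 6 were higher, 4 lower and 2 did not pass. Among all tested genes 35.3% were higher and 31.3% lower. With scaling by the median log2 ratio, 5 of the 12 were higher and 5 lower. The median log2 fold change of the 12 was 0.10. Cdk6 rose from 2.00 ± 0.0553 to 4.22 ± 0.0971 FPKM, Ccne2 with 0.42 and Ccna2 (cyclin A2) with 0.34. Ccnd2 fell from 12.7 ± 0.241 to 2.94 ± 0.242 FPKM, Ccnb1 with -0.20 and Ccnd1 with -0.13. Cdk4, at 122 and 123 FPKM, did not pass, with a sign that turned under both scaling alternatives. Of 6 CIP/KIP and INK4 inhibitors besides Cdkn1a 2 were higher and 2 lower, the latter count being 1 without WT replicate 1, 2 or 3 or without p53-deficient replicate 1, each left out in turn. Cdkn2a, the locus of p16 and ARF, rose from 22.7 ± 1.06 to 34.3 ± 3.44 FPKM and Cdkn2b (p15) fell from 16.6 ± 0.448 to 3.73 ± 0.311 FPKM.

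Downstream of p21, 8 of 14 genes of the RB family and DREAM complex were higher, 4 lower and 2 did not pass. Among all tested genes 35.3% were higher and 31.3% lower. Rb1 fell from 3.56 ± 0.146 to 0.360 ± 0.0389 FPKM. Its relative Rbl2 fell from 1.24 ± 0.129 to 0.530 ± 0.0694 FPKM (-0.55 on the log2(FPKM + 1) scale). E2f4, the main E2F of DREAM, rose from 56.4 ± 1.41 to 94.3 ± 4.35 FPKM, and Lin37, a core DREAM subunit, from 12.5 ± 0.199 to 20.9 ± 1.34 FPKM. Of 20 G2/M genes known to be repressed through DREAM, 11 were higher, 4 lower and 5 did not pass. With median scaling, 6 were higher and 5 lower. None changed 2-fold. Nek2 rose with 0.49, Cdc25c with 0.46 and Bub1b with 0.37, and Cenpe fell with -0.43.

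Gtse1, itself a gene of G2, did not follow that list. Its ratio to Plk1 was 1.15, 1.19 and 1.12 in WT and 0.600, 0.612 and 0.644 in p53-deficient libraries, and its ratio to Ccnb1 was 0.714 to 0.738 and 0.521 to 0.558. Both ratios were lower in each p53-deficient library (exact permutation p = 0.1, the smallest possible). None of the 20 G2/M genes fell as far as its -0.62.

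Btg2, Plk2 and Plk3 are also known as genes that growth factors induce within minutes, so other immediate early genes were set beside them. All 10 were called, 6 higher and 4 lower, where 66.5% of all tested genes were called, 35.3% higher and 31.3% lower. Fos rose from 9.42 ± 1.22 to 48.9 ± 1.29 FPKM, Egr1 from 7.38 ± 0.193 to 36.5 ± 0.520 FPKM, and Fosb from 2.84 ± 0.128 to 16.1 ± 0.624 FPKM. Ier3, also a reported p53 target, fell from 56.4 ± 2.01 to 9.63 ± 0.997 FPKM, Fosl1 with -1 and Atf3 with -0.83. Of the 3 members in this class, Btg2 and Plk2 fell and Plk3 did not pass.

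Of 15 genes of proteins that bind the 7 products, 5 were lower, 4 higher and 6 did not pass, where 31.3% of all tested genes were lower and 35.3% higher. With median scaling, 9 were lower and 1 higher. Without WT replicate 3, 3 were lower. Mdm2, the ubiquitin ligase of p53 that cyclin G1 acts on and itself a p53 target, fell from 49.8 ± 0.890 to 13.9 ± 0.629 FPKM. Mapre3, a microtubule end-binding protein gene, fell from 2.17 ± 0.290 to 0.431 ± 0.0338 FPKM. The phosphatase subunit genes Ppp2r5a and Ppp2r5c, of the class bound by cyclin G1, moved apart, at 0.78 and -0.71. Cnot8, a deadenylase subunit gene of the complex that BTG2 recruits, was 32.3 ± 0.948 and 31.2 ± 1.37 FPKM without passing, and was called lower under both scaling alternatives (both -0.14).

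**Figure D5:**
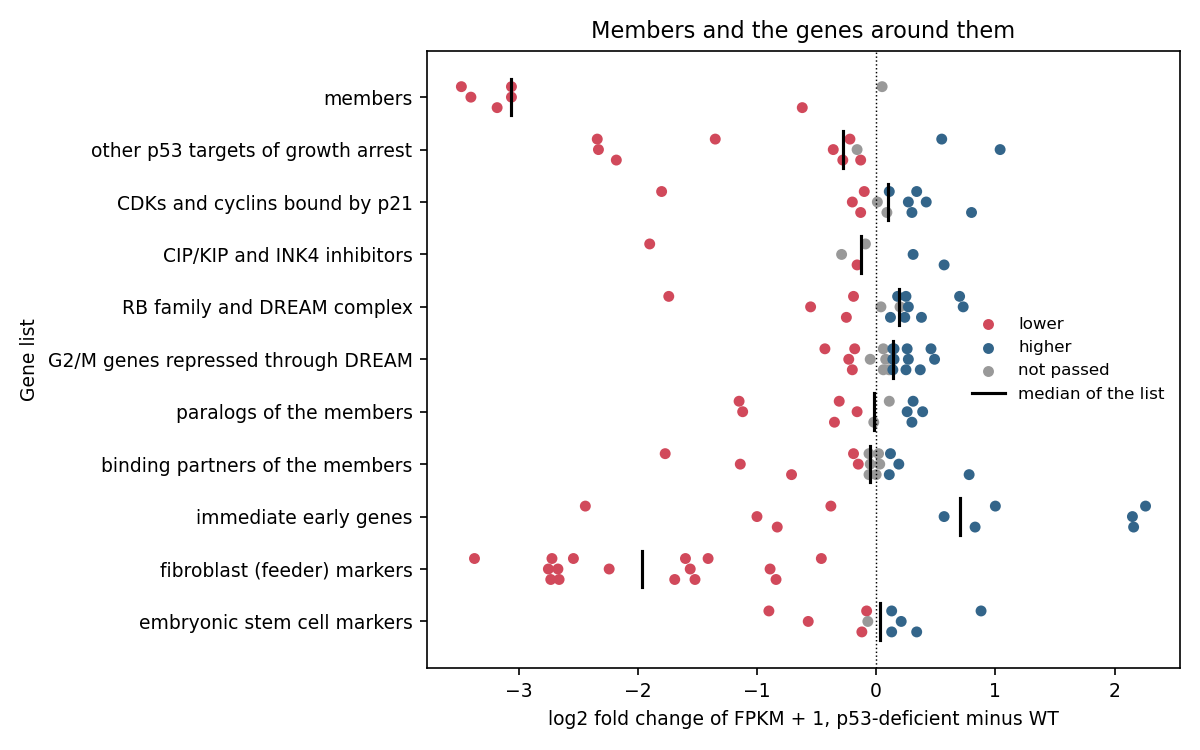
log2 fold change of FPKM + 1 (x axis, p53-deficient minus WT) of every tested gene in the members' list and 10 other lists (y axis); points are genes, coloured by call, and black bars are list medians. The members' median is -3.06, the fibroblast markers lie at a median of -1.97, and the list of genes bound by p21 lies at 0.10.

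The genes whose profile over the 6 libraries came nearest to Cdkn1a, by Euclidean distance of centred log2(FPKM + 1) values, were Ccl7 (distance 0.0946), Plk2 (0.143), Col12a1 (0.160), Dcxr (0.190) and the long noncoding RNA Gm48362 (0.216). Plk2 is thus the member most like Cdkn1a by this measure. Ccl7, a chemokine gene, was nearer and went from 103 to 12.0 FPKM. Col12a1, a collagen gene like some of the fibroblast markers that fell, went from 28.8 to 2.48 FPKM. Which cells these transcripts came from was not tested. The genes nearest to Gtse1 were Mcoln1, Lrpap1, Igfbp2, Foxp1 and Clic4, at distances of 0.0309 to 0.0555 and log2 fold changes of -0.61 to -0.64. With 2 groups, such distances mainly describe the size of the difference between them.

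RefSeq windows of 26 other genes held a p53 site with at most 1 mismatch, and 6 of these were expressed highly enough to be tested. Rps27l, a ribosomal protein S27 paralog and known p53 target, was lower with -0.73, as were Gm29797 with -0.92 and Calhm2 with -0.51. Mthfd1 and Eprn were higher with 0.51 and 0.85, and Sptbn4 did not pass at -0.01. Sptbn4 was the only tested gene whose site had 0 mismatches. The choice to name these 6 was made with their values in view. The Cdkn1a and Ccng1 falls, at -3.06 and -3.40, were larger than any of them, while Gtse1, with -0.62, lay within their range.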

How the data were processed

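The deposited table gives FPKM per gene and library, made by the authors. The build (mm10) and the tools HISAT2 2.0.5 and featureCounts 1.5.0-p3 are named, per the submitters' processing notes, with no roles. Columns were tied to samples by title. FPKM times the deposited gene length fell on whole multiples of a step in 100% of values above 0 (tolerance 0.001 of the reads), which gave reads per gene. Date-like symbols, 27 in all, were restored from gene identifiers. Values were tested as log2(FPKM + 1) in genes of mean FPKM at least 0.5, using limma 3.58.1 (R 4.3.3, two-sided, with a trend in the variance) and Benjamini-Hochberg adjustment over 15144 genes, called under 0.05. Fold changes on this scale understate those of low genes. The members, gene lists and motifs were chosen with earlier results of these data known (the motifs also after the windows were seen), and no list was tested as a set. Genes were named by rule (for each list up to 3 called genes each way and the most abundant that did not pass), not all of them printed. No pairing was used, because the labels do not say that replicate numbers pair libraries. As a check, no same-numbered libraries deviated together (r of -0.0328, 0.0142 and 0.00556). Coordinates of all 7 genes equal those of GENCODE M21. BLAST+ 2.17.0 found no other gene with a transcript at least 95% identical to a member's over 50% of the shorter one. Figures used matplotlib 3.10.9 in Python 3.11.15.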

Additional observations from a re-analysis of the deposited data

How the results depend on the processing

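Tried as alternatives, 14 in all, were voom weights on rebuilt reads, the replicate number as a block, a fit without the variance trend, quantile normalization, median scaling (by the median log2 ratio), a pseudocount of 0.1, minimum mean levels of 5 FPKM or none, and leaving out each of the 6 libraries. Of 98 values for the 7 genes, 96 kept their direction and side of the threshold. The exceptions were those of Plk3, which did not pass in any, at -0.0441 with median scaling and -0.0185 with quantile normalization. Without each library in turn, log2 fold changes were -3.09 to -3.01 for Cdkn1a, -3.41 to -3.39 for Ccng1, -3.23 to -3.14 for Btg2, -0.64 to -0.60 for Gtse1, -3.56 to -3.44 for Psrc1, -3.10 to -3.03 for Plk2 and 0.04 to 0.05 for Plk3, and the genes called numbered 9268 to 9721. Called genes numbered 10074 in the fit as reported and 5944 among genes of mean FPKM at least 5, where fewer were tested. With the replicate block 9766 genes were called, no call of the 7 changed, and of the other named genes 1 did, Cdkn1b (-0.16, adjusted p = 0.0693). Cdk4 turned sign with median scaling (-0.084), quantile normalization (-0.0564), voom weights (-0.0271) and without p53-deficient replicate 1 (-0.0189; 0.0316 without p53-deficient replicate 2), Tfdp2 with median scaling (-0.039), and Ccni without p53-deficient replicate 3 (0.0055, and -0.046 without replicate 2). The cause was not tested. Of 308 counts for the other lists, 23 moved by over 1.5 times. Library depth limits the low p53-deficient values most: Btg2 rested on 86 to 184 reads there.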
